A study of Arabidopsis thaliana with 6 samples.

Results

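The genes described here are 10 MYB transcription factors of the secondary cell wall programme in Arabidopsis thaliana, chosen by their gene identifiers from the 37051 genes counted in 6 RNA-seq libraries of the inflorescence stem. They were MYB46 (AT5G12870), MYB83 (AT3G08500), MYB58 (AT1G16490), MYB63 (AT1G79180), MYB85 (AT4G22680), MYB103 (AT1G63910), MYB20 (AT1G66230), MYB42 (AT4G12350), MYB43 (AT5G16600) and MYB52 (AT1G17950). Tissue was collected by laser capture microdissection, in which a laser cuts defined areas out of a stem section, from frozen internodes of wild-type Col-0 plants raised in short days and then moved to long days. The libraries came from the phloem cap (2 libraries), the pith (2 libraries) and the vascular bundle that remained after the phloem cap had been cut away (2 libraries). The labels do not say whether replicates came from separate plants, so that p-values measure only the spread between these samples.

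Secondary cell walls are thick layers of cellulose, xylan and lignin that vessels and fibers lay down once they have stopped growing. The programme is known as a cascade. NAC factors (NST1 and NST3 in fibers, VND6 and VND7 in vessels) switch on MYB46 and MYB83, which act redundantly and bind a short promoter element, the secondary wall MYB-responsive element (SMRE). These in turn act through further MYB factors and directly on wall enzymes. MYB58, MYB63 and MYB85 are known as lignin regulators, MYB103 as a regulator of syringyl lignin, and MYB20, MYB42 and MYB43 act with MYB85 on lignin and phenylalanine supply. MYB52 is a further secondary wall factor below the NAC switches.

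Each library held 19324189 to 22571632 counts, so that a gene with 0 counts could still hold up to 3 counts, or 0.126 to 0.165 CPM. CPM are counts scaled to the size of each library, as adjusted by the TMM method. The RNA had been amplified, so that limits and intervals from counts cover counting error only. The tissue labels were checked with marker genes. The paper picked MYB29 and MIPS3 of the phloem cap set and CLE46 and AGP26 of the pith set from these same libraries. Their values are therefore no independent check. CYP83A1, CYP83B1, ANAC074 and AT2G38380 were known from earlier work. The 4 phloem cap markers (among them CYP83A1) summed to 2438 and 2814 CPM in phloem cap libraries, 225 and 125 CPM in pith libraries and 1027 and 773 CPM in vascular bundle libraries. The 4 pith markers (among them ANAC074) summed to 206 and 279 CPM in pith libraries and to 2.8 to 10.9 CPM in the other libraries. Of the markers known before, CYP83A1 had 2059 and 2420 CPM in phloem cap and 875 and 675 CPM in vascular bundle libraries. CYP83B1 had 233 and 237 CPM in phloem cap and 120 and 74.8 CPM in vascular bundle libraries. ANAC074 had 15.8 and 11.1 CPM in pith and 0.947 and 0.469 CPM in vascular bundle libraries. AT2G38380 differed more between the pith libraries, with 46.9 and 162 CPM, against 0.284 and 1.19 CPM in vascular bundle libraries. The 3 vessel markers (XCP1, XCP2 and VND7) summed to 52.2 and 130 CPM in phloem cap libraries, 134 and 101 CPM in pith libraries and 2540 and 2382 CPM in vascular bundle libraries. Most of each sum came from XCP2. XCP1 had 4.35 and 16.8 CPM in phloem cap and 3.19 and 10.5 CPM in pith libraries. The 5 phloem markers (among them APL) summed to 452 and 357 CPM in phloem cap and 201 and 131 CPM in vascular bundle libraries. In pith libraries they summed to 4.35 and 2.73 CPM. The 4 cambium markers (among them WOX4) summed to 1049 and 698 CPM in phloem cap and 614 and 450 CPM in vascular bundle libraries. In pith libraries these summed to 584 and 543 CPM, mostly from PXY. The 2 starch sheath markers went opposite ways. SCR had 3.43 and 5.39 CPM in phloem cap, 19.9 and 26.8 CPM in pith and 8.72 and 10.6 CPM in vascular bundle libraries. PIN3 had 32.5 and 29 CPM in phloem cap, 2.86 and 2.05 CPM in pith and 22.5 and 26.1 CPM in vascular bundle libraries. The epidermal markers, of which CER6 and FDH were highest in the vascular bundle, are given below. In such dissected tissue, fewer cells of a type and less RNA per cell cannot be told apart.

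All 9 MYB genes with counts had the highest mean level in the vascular bundle, an intermediate level in the phloem cap and the lowest in the pith. Summed over the 10 genes, the level was 28.1 and 83.5 CPM in phloem cap libraries, 8.43 and 8.41 CPM in pith libraries and 219 and 286 CPM in vascular bundle libraries. For each of the 9 genes, both phloem cap libraries lay below both vascular bundle libraries, and so did both pith libraries. Among all genes tested, the libraries were apart in these directions for 26.4% in the phloem cap and for 37.6% in the pith. The phloem cap libraries lay above the pith libraries for 8 of the 9 genes, against 35% of all genes tested, and overlapped them for MYB46. MYB58 had no counts at all.

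**Figure D1:**
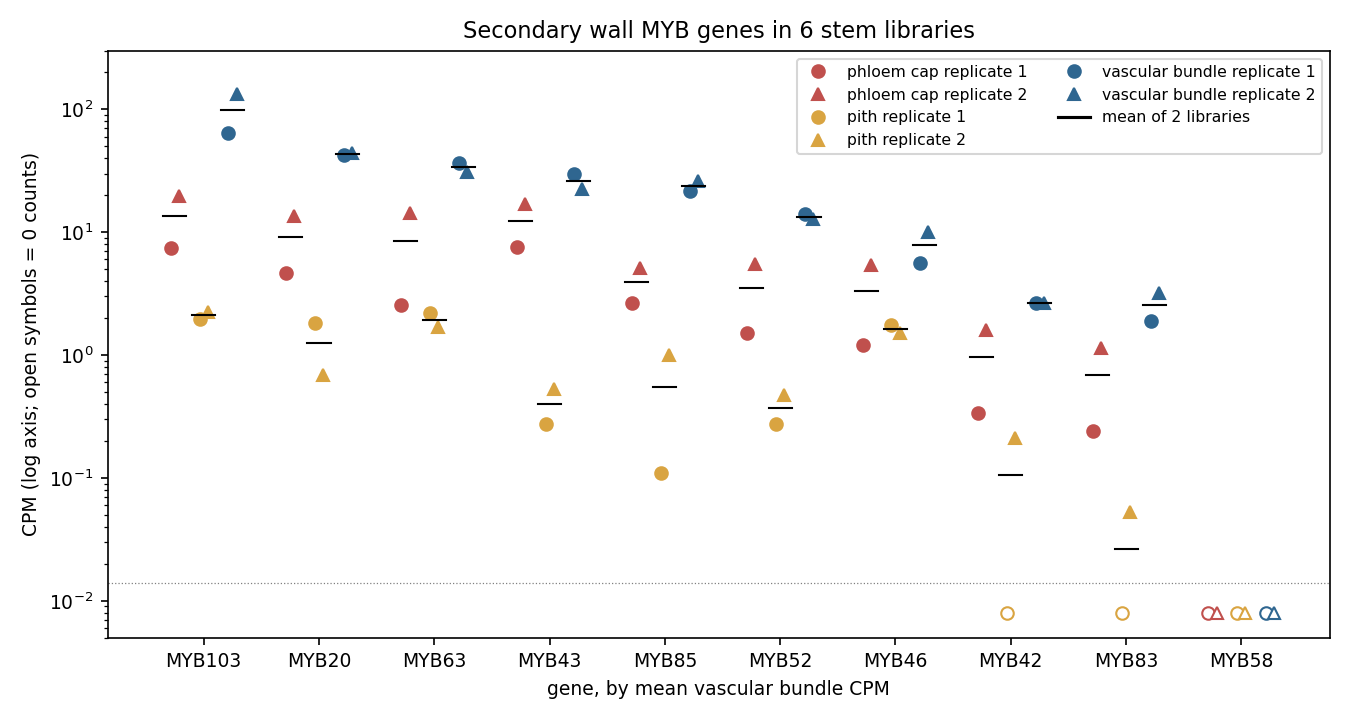
CPM of each MYB gene (log axis) in the 2 phloem cap, 2 pith and 2 vascular bundle libraries, with points for libraries, lines for means and open symbols for libraries with 0 counts. Vascular bundle points lie on top for 9 genes, from 1.89 CPM for MYB83 to 134 CPM for MYB103, and MYB58 is at 0 throughout.

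MYB46 and MYB83, the factors next below the NAC switches, were among the 3 least abundant of the 9 per gene length in the vascular bundle. MYB46 (chr5:4062666-4065075, minus strand, TAIR10.1) had 1.21 and 5.43 CPM in phloem cap libraries, 1.76 and 1.52 CPM in pith libraries and 5.64 and 10.1 CPM in vascular bundle libraries. Its pith level was 20.9% of that in the vascular bundle, the highest share among the 9 genes, and the phloem cap replicates fell on either side of the pith values. MYB83 (chr3:2576444-2578276, minus strand) had 0.242 and 1.14 CPM in phloem cap libraries, 0 and 0.0526 CPM in pith libraries and 1.89 and 3.2 CPM in vascular bundle libraries. The pith value of MYB83 rests on 1 count in 2 libraries, against 115 counts in the vascular bundle. This ratio, 96-fold lower in the pith, has an exact 95% counting interval of 16.9-fold to 3823-fold.

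The DNA just upstream of the members is shown because MYB46 and MYB83 are known to act through the SMRE. The element was searched on both strands as its 8 variants of 7 bases, which are ACCAAAC or ACCAAAT, then ACCAACC or ACCAACT, then ACCTAAC or ACCTAAT, and finally ACCTACC or ACCTACT. A match was found in the 300 bases before the annotated start of 3 of the 10 members, against 33.9% of 27443 genes with such a region. MYB83, MYB42 and MYB52 were these 3, and MYB46 stands beside them as a member without a match. The sequences, from the TAIR10.1 assembly of RefSeq, read 5′ to 3′ on the strand of the gene and end at the base before the annotated start, with matches in capitals. They lie at chr5:4065076-4065375 (minus strand) for MYB46, chr3:2578277-2578576 (minus strand) for MYB83, chr4:7324456-7324755 (plus strand) for MYB42 and chr1:6177181-6177480 (plus strand) for MYB52.
MYB46: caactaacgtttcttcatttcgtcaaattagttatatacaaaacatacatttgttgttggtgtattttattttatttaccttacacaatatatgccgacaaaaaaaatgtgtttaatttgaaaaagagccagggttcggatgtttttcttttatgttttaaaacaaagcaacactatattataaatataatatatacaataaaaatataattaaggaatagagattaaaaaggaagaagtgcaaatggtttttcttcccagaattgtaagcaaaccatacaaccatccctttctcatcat
MYB83: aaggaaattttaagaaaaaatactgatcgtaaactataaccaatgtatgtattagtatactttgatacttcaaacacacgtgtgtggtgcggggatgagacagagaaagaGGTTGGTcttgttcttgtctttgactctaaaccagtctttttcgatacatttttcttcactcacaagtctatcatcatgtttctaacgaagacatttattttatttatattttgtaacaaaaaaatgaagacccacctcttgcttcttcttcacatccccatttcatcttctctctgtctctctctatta
MYB42: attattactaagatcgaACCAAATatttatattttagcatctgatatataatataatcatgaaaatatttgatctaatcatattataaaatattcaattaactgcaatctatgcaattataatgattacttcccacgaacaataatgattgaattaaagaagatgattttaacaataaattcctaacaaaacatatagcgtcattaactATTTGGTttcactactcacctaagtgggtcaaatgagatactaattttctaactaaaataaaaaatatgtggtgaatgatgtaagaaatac
MYB52: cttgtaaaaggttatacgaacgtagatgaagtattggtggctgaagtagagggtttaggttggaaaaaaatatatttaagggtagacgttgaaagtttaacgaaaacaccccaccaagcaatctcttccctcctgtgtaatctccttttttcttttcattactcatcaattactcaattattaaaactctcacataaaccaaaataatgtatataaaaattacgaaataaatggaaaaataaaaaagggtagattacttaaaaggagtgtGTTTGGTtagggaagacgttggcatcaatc
The match of MYB83 was ACCAACC on the opposite strand, beginning 190 bases before the start. MYB42 held ACCAAAT 283 bases before the start and, on the opposite strand, 91 bases before it. The match of MYB52, ACCAAAC on the opposite strand, lay 30 bases before the start. Matches are letters in a window and were not tested for binding. Among the wall enzyme genes listed below, 12 of 18 lignin, 7 of 12 xylan and 2 of 5 cellulose genes held an SMRE match in the same window. Other lists ran from 1 of 5 phloem markers and 2 of 12 NAC genes to 4 of 4 cambium and 4 of 4 pith markers. Whether any list held more matches than other genes was not tested.

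MYB63 (chr1:29786257-29787820, plus strand), a regulator of lignin genes, had 2.56 and 14.4 CPM in phloem cap libraries, 2.2 and 1.68 CPM in pith libraries and 36.7 and 30.9 CPM in vascular bundle libraries. MYB85 (chr4:11922340-11924230, minus strand), which also acts on lignin genes, had 2.66 and 5.13 CPM in phloem cap libraries, 0.11 and 0.999 CPM in pith libraries and 21.5 and 26.1 CPM in vascular bundle libraries. MYB103 (chr1:23719783-23721774, minus strand), known for its role in syringyl lignin, had 7.39 and 19.6 CPM in phloem cap libraries, 1.98 and 2.26 CPM in pith libraries and 64.1 and 134 CPM in vascular bundle libraries. Like all measured members, none of the 3 overlapped between the vascular bundle and another tissue. The pith libraries differed 9.07-fold for MYB85, and the vascular bundle libraries 2.09-fold for MYB103.

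MYB20 (chr1:24677121-24678580, plus strand) had 4.69 and 13.6 CPM in phloem cap libraries, 1.82 and 0.683 CPM in pith libraries and 42.2 and 43.8 CPM in vascular bundle libraries. MYB42 (chr4:7324756-7326867, plus strand) had 0.338 and 1.6 CPM in phloem cap libraries, 0 and 0.21 CPM in pith libraries and 2.65 CPM in both vascular bundle libraries. MYB43 (chr5:5438165-5440433, plus strand) had 7.54 and 17.1 CPM in phloem cap libraries, 0.275 and 0.526 CPM in pith libraries and 30 and 22.6 CPM in vascular bundle libraries. These 3 genes act together on lignin and phenylalanine supply. In none of them did the libraries of any tissue overlap those of another, as in every measured member except MYB46. The shares of all genes for each pair of tissues are given above. The mean level of MYB43 in the phloem cap was 46.9% of that in the vascular bundle, and its pith level 1.52%. MYB52 (chr1:6177481-6179289, plus strand), the remaining member, had 1.5 and 5.51 CPM in phloem cap libraries, 0.275 and 0.473 CPM in pith libraries and 14 and 12.8 CPM in vascular bundle libraries.

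Levels of different genes were compared per length, as TPM, in which counts are divided by the gene length including introns and scaled to the same total. In the vascular bundle MYB103 averaged 107 ± 57.1 TPM, MYB20 63 ± 4.24 TPM and MYB63 46.1 ± 3.73 TPM (SD, n = 2 each). MYB85 averaged 27 ± 4.8 TPM, MYB43 24.7 ± 3.92 TPM and MYB52 15.8 ± 0.383 TPM. MYB46 averaged 7.02 ± 3.06 TPM, MYB83 2.99 ± 1.2 TPM and MYB42 2.68 ± 0.102 TPM. In this order of mean TPM, MYB103 and MYB20, MYB85 and MYB43, and MYB83 and MYB42 were neighbours that differed by no more than the spread between their replicates. MYB103 took 26.5% and 43.4% of the summed TPM of the members in the vascular bundle. The make-up of the sum was not the same in the pith, where MYB46 took 15.5% and 14.2%, against 1.93% and 2.7% in the vascular bundle.

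MYB58 is the member that could not be measured with these counts. It had 0 counts in all 6 libraries, although MYB63, the most similar member with 80.1% identity over the coding sequence, was among the 3 most abundant per length in the vascular bundle. The span of MYB58 (chr1:5629655-5631088, minus strand) lies wholly inside AT1G16489, a long non-coding RNA gene on the opposite strand (chr1:5629183-5631131), which had 1 count in total. The authors counted without regard to strand, in a mode that drops reads overlapping more than 1 gene. Of 563 protein-coding genes that other genes cover in full, 561 (99.6%) had 0 counts in every library, against 4305 of 19775 (21.8%) without any overlap. A count of 0 for MYB58 therefore gives no level and no upper limit. The other 9 members overlap no annotated gene.

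**Figure D2:**
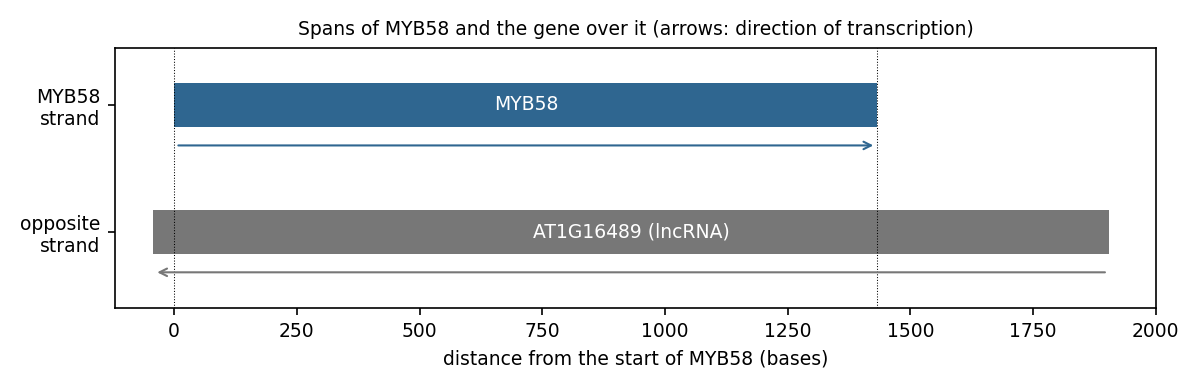
Spans of MYB58 and of the long non-coding RNA gene AT1G16489 on the opposite strand, in bases from the start of MYB58, with arrows for the direction of transcription. AT1G16489 covers all of MYB58 and extends 43 and 472 bases beyond it.

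The pith was first compared with the vascular bundle to ask how far these genes differ between a parenchyma tissue and the tissue that holds the vessels and fibers. Of the 9 MYB genes tested, 7 passed as lower in the pith, against 10.5% of the 18063 genes tested. The test was edgeR's quasi-likelihood test with p-values adjusted by the Benjamini-Hochberg method, and a gene was called at a fold change above 2 with an adjusted p under 0.01. At an unadjusted p below 0.05 all 9 were lower, against 24.1% of all genes. The median log2 fold change of the 9 was -5.13, against -0.04 over all genes. MYB43 fell by 6.01 ± 0.45 on the log2 scale (SE, edgeR adjusted p = 0.000335), which is 64.5-fold, and MYB103 by 5.54 ± 0.45 (edgeR adjusted p = 0.000411). MYB20, MYB52 and MYB85 had log2 fold changes of -5.11, -5.13 and -5.40 and were called too. MYB63 fell by 4.12 ± 0.33 on the log2 scale (edgeR adjusted p = 0.00038), and MYB83, with its single pith count, was also called (edgeR adjusted p = 0.00614).

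The 2 genes that missed the threshold were MYB46 and MYB42. MYB46 had a log2 fold change of -2.26 ± 0.49 (SE, edgeR adjusted p = 0.0132), the smallest change among the 9, and MYB42 one of -4.56 ± 1.08 (edgeR adjusted p = 0.0188) on 4 pith counts against 118 in the vascular bundle. The Wald test in DESeq2, the tool of the study, called all 9 lower, against 13.9% of the genes it tested. Leaving out 1 library and fitting the other 5 together, so that a lone library is assumed to vary like the others, left 2 calls without pith replicate 2 (6.04% of all genes tested in that fit), 3 without pith replicate 1 (4.43%), 4 without vascular bundle replicate 2 (5.08%) and 5 without vascular bundle replicate 1 (4.2%). Every one of the 9 fold changes stayed negative in these fits.

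The phloem cap was then compared with the same vascular bundle libraries. All 9 MYB genes had negative log2 fold changes, with a median of -1.94 against 0.04 over all genes, but edgeR called none, and it called 0% of the 18528 genes tested. At an unadjusted p below 0.05, 6 of the 9 were lower, against 11% of all genes. The changes ran from -1.10 ± 0.43 for MYB43 (SE, edgeR adjusted p = 0.215) to -2.89 ± 0.59 for MYB103 (edgeR adjusted p = 0.0698), which is 7.41-fold. DESeq2 called 3 lower, against 3.9% of all genes. These were MYB85 (DESeq2 adjusted p = 8.03e-07), MYB103 (DESeq2 adjusted p = 8.69e-06) and MYB20 (DESeq2 adjusted p = 0.000448). MYB63 alone was called by edgeR without phloem cap replicate 2, at a log2 fold change of -3.72 (edgeR adjusted p = 0.00923), in a fit that called 0.559% of all genes lower.

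**Figure D3:**
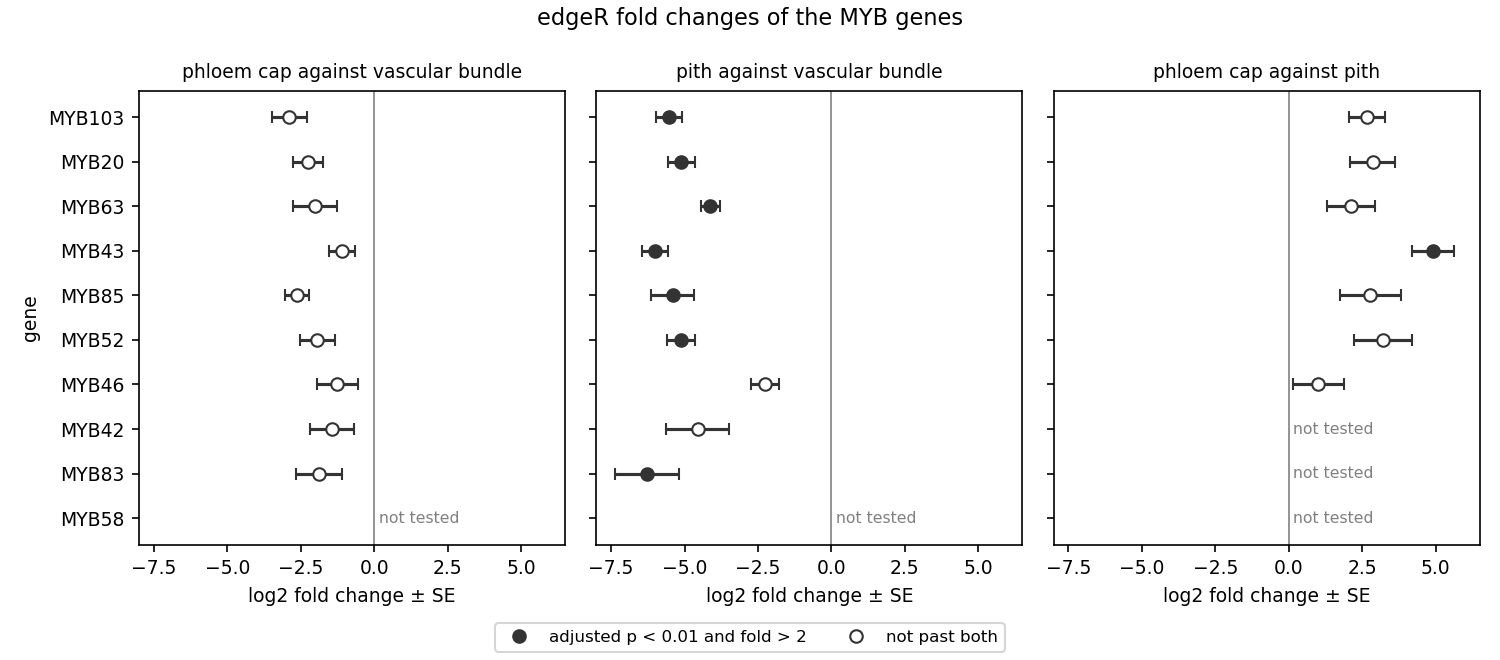
Log2 fold change with its SE for each MYB gene in the 3 comparisons, from edgeR, with filled points for genes past both thresholds. Filled points number 0 for phloem cap against vascular bundle, 7 for pith against vascular bundle and 1 for phloem cap against pith.

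The direct comparison of phloem cap and pith tested whether the members differ between these 2 tissues, which the comparisons above, sharing the vascular bundle libraries, do not. Of the 7 MYB genes tested, 1 was called higher in the phloem cap, against 8.33% of the 18201 genes tested, and all 7 had positive log2 fold changes, with a median of 2.78 against 0.07 over all genes. The called gene was MYB43, with a log2 fold change of 4.91 ± 0.73 (SE, edgeR adjusted p = 0.00203), a 30.1-fold difference. MYB103 followed at 2.66 ± 0.61 (edgeR adjusted p = 0.0137) and MYB20 at 2.86 ± 0.77 (edgeR adjusted p = 0.0252), and DESeq2 called these 3, against 12.6% of all genes. MYB52, MYB85 and MYB63 had edgeR adjusted p-values of 0.0426, 0.0853 and 0.0981. MYB83 and MYB42 were not tested for too few counts, with 32 counts in the phloem cap against 1 in the pith for MYB83, and 45 against 4 for MYB42.

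MYB46 had the smallest difference of the 7, with a log2 fold change of 1.0 ± 0.87 (SE, edgeR adjusted p = 0.457) that turned to -0.44 without phloem cap replicate 2. Without the same library, that of MYB63, 2.11 with all libraries, was 0.40 (edgeR adjusted p = 0.512). With 1 library left out, 9 MYB genes were tested, and 5 were called higher without phloem cap replicate 1, against 8.21% of all genes in that fit, and 2 without pith replicate 2, against 6.83%. Of all genes called, 65.8% were higher in the phloem cap, and 77.1% when scaled to library totals.

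The phloem cap libraries differed from each other in these genes. All 9 MYB genes were higher in replicate 2 than in replicate 1, as were 9854 of the 18829 genes tested. For the MYB genes, the ratios in CPM ran from 1.93-fold for MYB85 to 5.62-fold for MYB63. With 0.1 CPM added to each value, the median ratio was 3.51, against 1.03 over all genes, and the same MYB genes had median ratios of 1.53 between the pith libraries and 1.04 between the vascular bundle libraries. The wall enzyme lists moved with them, with 5 of 5 cellulose, 12 of 12 xylan and 18 of 18 lignin genes higher in replicate 2 at median ratios of 4.08, 2.93 and 2.46. XCP1 and XCP2, proteases of vessel elements, were 3.87-fold and 2.37-fold higher, and the 4 pith markers had a median ratio of 3.26. These pith markers summed to only 2.8 and 10.9 CPM in the phloem cap libraries. The 4 phloem cap markers had a median ratio of 1.06. Whether other cell types had any part in the MYB values of the phloem cap was not tested.

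**Figure D4:**
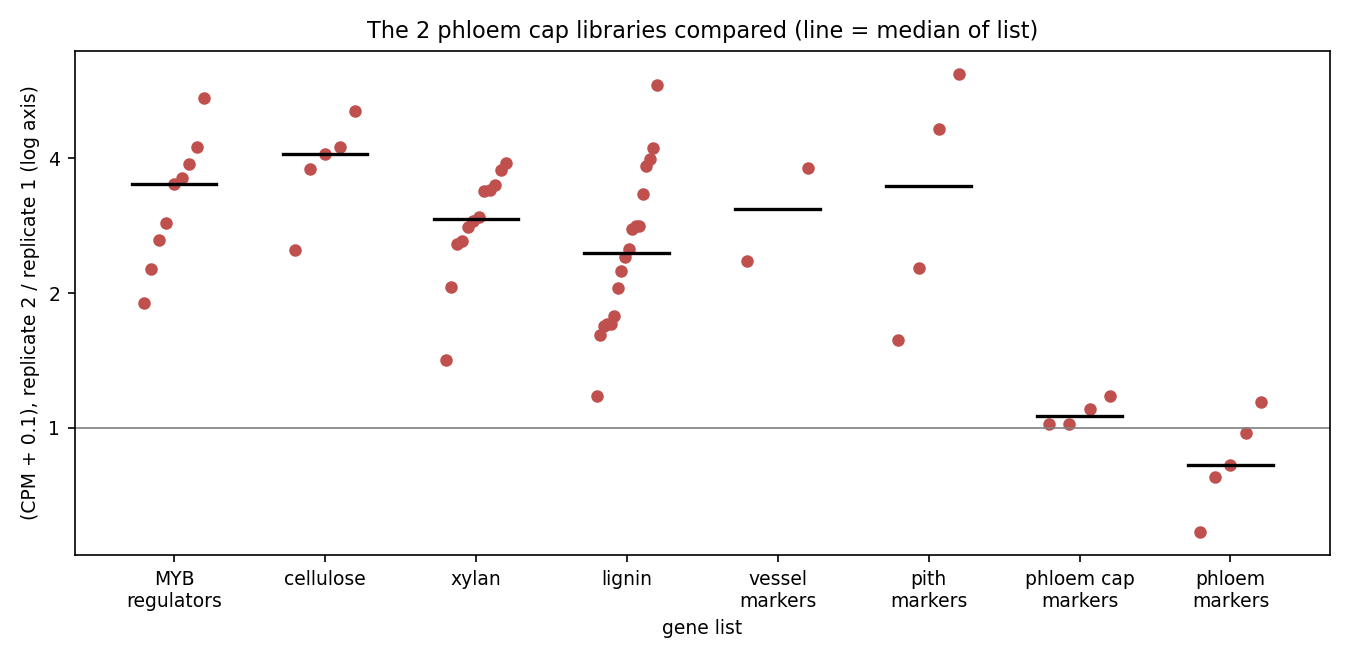
Ratio of phloem cap replicate 2 to replicate 1, as CPM + 0.1 on a log axis, for each gene of 8 lists, with lines for medians. The MYB genes (median 3.51) and wall enzyme genes lie above 1, and the phloem cap markers lie near 1 (median 1.06).

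Between the phloem cap and the pith, the vessel markers XCP1 and XCP2 had log2 fold changes of 0.62 ± 0.77 and -0.46 ± 0.45 (SE). Neither was called. The MYB genes had a median of 2.78, and the 9 NAC genes tested one of 2.87. VND3, a relative of the vessel switches, was called at 4.13 ± 0.83 (edgeR adjusted p = 0.00776). Of the epidermal markers, CER6, which makes very-long-chain fatty acids for wax, and FDH had Pearson's r of 0.985 and 0.992 on log2(CPM + 1) with the mean standardized level of the MYB genes over the 6 libraries. CER6 had 11 and 107 CPM in phloem cap libraries, 1.71 and 8.2 CPM in pith libraries and 407 and 434 CPM in vascular bundle libraries. The third epidermal marker, LTP1, ran the other way, with 7.25 and 0.631 CPM in phloem cap libraries, 1.6 and 0.0526 CPM in pith libraries and 0.521 and 0.427 CPM in vascular bundle libraries. Its log2 fold change between the phloem cap and the vascular bundle was 3.02 ± 1.14 (SE, edgeR adjusted p = 0.209). The ratio of phloem cap replicate 2 to replicate 1, with 0.1 CPM added, was 9.67 for CER6, 9.69 for FDH and 0.0995 for LTP1. Whether epidermal cells had any part in the MYB values was not tested.

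The NAC factors above the MYB genes were called lower in the pith for 7 of the 11 genes tested, against 10.5% of all genes. Their median log2 fold change was -4.48. DESeq2 called 9 of 12 lower, against 13.9% of the genes it tested. NST3, the fiber switch, had 13.1 and 29.3 CPM in phloem cap libraries, 3.58 and 3.52 CPM in pith libraries and 103 and 91.7 CPM in vascular bundle libraries, and fell by 4.78 ± 0.27 on the log2 scale in the pith (SE, edgeR adjusted p = 0.000255). NST1, its partner, fell by 2.49 ± 0.32 in the pith (edgeR adjusted p = 0.0019), and its pith level of 5.29 and 4.73 CPM was 17.9% of that in the vascular bundle. SND2, a NAC factor below NST3, was called as well (edgeR adjusted p = 0.000356), and so was SND3 (edgeR adjusted p = 0.000642).

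The vessel switches had few counts in the pith. VND6 had 3 counts there against 86 in the vascular bundle. Its levels were 0.386 and 2.78 CPM in phloem cap libraries, 0 and 0.158 CPM in pith libraries and 1.42 and 2.39 CPM in vascular bundle libraries. In the pith edgeR did not call VND6 (edgeR adjusted p = 0.0238), whereas DESeq2 called it lower (DESeq2 adjusted p = 0.00701). VND7 had 2 counts over the phloem cap libraries, 0 over the pith libraries and 16 over the vascular bundle libraries. Of the other VND genes, all relatives of these switches, VND3 and VND5 were called lower in the pith by edgeR. DESeq2 also called VND4 lower (DESeq2 adjusted p = 0.00145). These are named after their values were seen. VND3 had 5.12 and 4.5 CPM in phloem cap libraries, 0.22 and 0.315 CPM in pith libraries and 7.06 and 7.17 CPM in vascular bundle libraries, and fell by 4.70 ± 0.55 on the log2 scale in the pith (SE, edgeR adjusted p = 0.00141). VND5 fell by 3.89 ± 0.69 (edgeR adjusted p = 0.00645). Against the vascular bundle, edgeR called 0 NAC genes in the phloem cap, with 4 lower at an unadjusted p below 0.05, against 11% of all genes. DESeq2 called 4 lower, NST3 and SND2 among them, against 3.9% of all genes. Between the phloem cap and the pith, 3 of 9 NAC genes tested were called higher, against 8.33% of all genes. NST3 was among them (log2 fold change 2.57 ± 0.52, edgeR adjusted p = 0.00842).

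The wall enzymes that the MYB factors act on were also lower in the pith. Called lower were 5 of 5 cellulose genes, 12 of 12 xylan genes and 16 of 18 lignin genes, against 10.5% of all genes. Their median log2 fold changes were -5.23, -4.43 and -3.88. CESA4, a subunit of the secondary wall cellulose synthase, had 140 and 351 CPM in phloem cap libraries, 55.7 and 37.3 CPM in pith libraries and 1772 and 1981 CPM in vascular bundle libraries. CESA7, another subunit, and CTL2, a chitinase-like protein of the cellulose pathway, had log2 fold changes of -5.23 and -5.21 in the pith. Of the xylan genes, the changes in the pith were -4.53 ± 0.25 on the log2 scale for IRX15, -3.98 ± 0.24 for IRX15L (edgeR adjusted p = 0.000255 each) and -2.13 ± 0.22 for PARVUS (edgeR adjusted p = 0.00092).

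PAL1, which opens the phenylpropanoid pathway, had 186 and 525 CPM in phloem cap libraries, 67 and 79.1 CPM in pith libraries and 2192 and 1823 CPM in vascular bundle libraries. HCT and CSE, enzymes of monolignol synthesis, had log2 fold changes of -3.13 and -1.40 in the pith and were called. The 2 lignin genes not called, named after their values were seen, were COMT1 and CCR1. COMT1, the methyltransferase of syringyl lignin, had 556 and 744 CPM in pith libraries, against 681 and 628 CPM in vascular bundle libraries. CCR1 is 81.2% covered by other genes and had 0.881 and 0.421 CPM in pith libraries, against 0.805 and 0.512 CPM in vascular bundle libraries. Of 5 phenylalanine genes tested, 2 were called lower in the pith, against 10.5% of all genes. These were ADT4 and ADT5, arogenate dehydratases of the last step, whereas ADT3 had a log2 fold change of -0.01 ± 0.24 (edgeR adjusted p = 0.99).

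**Figure D5:**
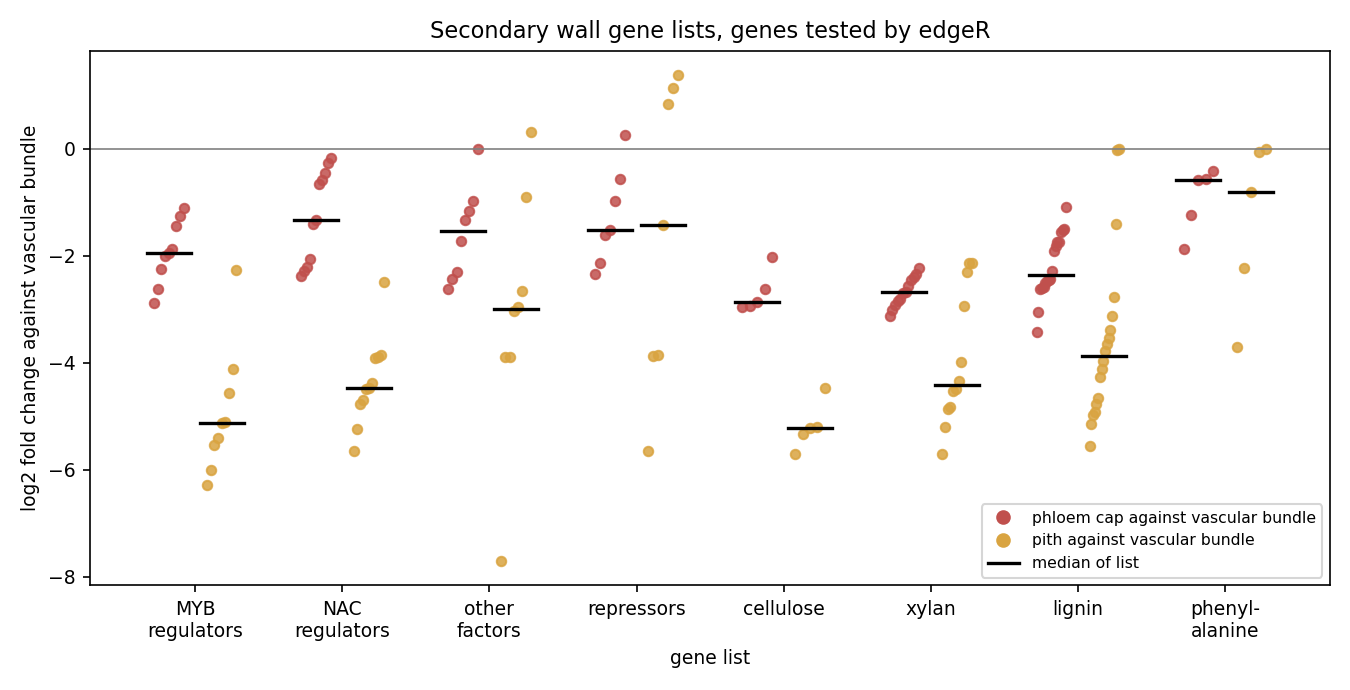
Log2 fold change against the vascular bundle for the phloem cap and the pith, with points for genes tested by edgeR and lines for list medians. The MYB medians are -1.94 for phloem cap and -5.13 for pith, and 3 repressor genes lie above 0 in the pith.

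In the phloem cap, edgeR called 0 genes of these wall lists against the vascular bundle. At an unadjusted p below 0.05 they numbered 5 of 5 cellulose, 12 of 12 xylan, 17 of 18 lignin and 2 of 5 phenylalanine genes, against 11% of all genes. DESeq2 called 4 of 5 cellulose, 12 of 12 xylan, 15 of 18 lignin and 1 of 5 phenylalanine genes lower, against 3.9%. The median log2 fold changes were -2.87, -2.68, -2.36 and -0.58. For fits with 1 library left out, the shares of all genes are those given above for the MYB genes. Without phloem cap replicate 2, edgeR called 5 cellulose, 8 xylan and 8 lignin genes. In the pith, the calls of these lists fell to 1 cellulose, 1 xylan and 6 lignin genes without pith replicate 1, to 1, 4 and 9 without pith replicate 2, and to 7 xylan genes without vascular bundle replicate 2. The NAC calls fell to 4 without pith replicate 1 or either vascular bundle replicate. The 2 phenylalanine calls fell to 0 without either pith replicate and to 1 without either vascular bundle replicate.

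In the pith, the other wall factors and the repressors did not all follow the MYB genes. In the phloem cap, 7 of 8 other wall factors and 6 of 7 repressors had negative log2 fold changes against the vascular bundle. Among all genes, 8800 of 18528 did. The medians of the 2 lists were -1.53 and -1.51. There edgeR called 0 genes of either list, and DESeq2 called 3 of each lower, against 3.9% of all genes. KNAT7, a homeodomain partner of MYB proteins, had 31.6 and 72.5 CPM in phloem cap libraries, 32.3 and 35.5 CPM in pith libraries and 262 and 296 CPM in vascular bundle libraries, and fell by 3.04 ± 0.24 on the log2 scale in the pith (SE, edgeR adjusted p = 0.000351). BLH6, its interaction partner, and the zinc finger factor C3H15 were called lower in the pith too, among 5 of 8 other wall factors tested, against 10.5% of all genes. The 3 not called, named after their values were seen, were MYB54, MYB61 and WRKY13. MYB61, a further MYB factor, had 1.26 and 4.38 CPM in phloem cap libraries, 8.43 and 7.36 CPM in pith libraries and 4.55 and 8.02 CPM in vascular bundle libraries, and its log2 fold change between pith and vascular bundle was 0.32 ± 0.41 (edgeR adjusted p = 0.595). That of WRKY13 was -0.90 ± 0.51 (edgeR adjusted p = 0.232) and that of MYB54 was -2.95 ± 0.87 (edgeR adjusted p = 0.0408). The count of calls was 3 without pith replicate 1 or either vascular bundle replicate.

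Among 7 repressor genes, 2 were called lower in the pith, against 10.5% of all genes, and 3 had positive log2 fold changes there. MYB4, a repressor of phenylpropanoid genes, was called lower, at 5.23 and 3.52 CPM in pith libraries against 73.6 and 55.3 CPM in vascular bundle libraries (log2 fold change -3.88 ± 0.33, edgeR adjusted p = 0.000457). MYB32, a close relative of MYB4, had 48 and 46.2 CPM in pith libraries against 31.6 and 21.1 CPM in vascular bundle libraries (log2 fold change 0.83 ± 0.28, edgeR adjusted p = 0.0612). WRKY12, known to keep pith cells from making secondary walls, had 1.79 and 5.68 CPM in phloem cap libraries, 41.3 and 30.3 CPM in pith libraries and 20.3 and 12.2 CPM in vascular bundle libraries. Its difference between the pith and the vascular bundle was not called (log2 fold change 1.14 ± 0.34, edgeR adjusted p = 0.0414), and it was lower in the phloem cap than in the pith (log2 fold change -3.26 ± 0.59, edgeR adjusted p = 0.00528). MYB7, the third gene with a positive value, was named after its values were seen and had 16.6 and 15.9 CPM in pith libraries against 6.02 and 6.48 CPM in vascular bundle libraries (edgeR adjusted p = 0.0144). DESeq2 called MYB7 higher in the pith (DESeq2 adjusted p = 0.00154). The 2 repressor calls fell to 1 without pith replicate 1 or either vascular bundle replicate, and the WRKY12 call between the phloem cap and the pith was lost without either pith replicate.

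Genes outside these lists were ranked by how closely their level followed the mean standardized level of the 9 MYB genes over the 6 libraries, among 10831 genes of at least 10 CPM. The 5 most alike were GRP23, LTP5, FLA11, PUP1 and AT1G09310, with Pearson's r of 0.9978 to 0.9988 on log2(CPM + 1). FLA11, a fasciclin-like arabinogalactan protein of secondary walls, had 117 and 569 CPM in phloem cap libraries, 50.7 and 57 CPM in pith libraries and 1273 and 1517 CPM in vascular bundle libraries. GRP23 (AT2G32690), a glycine-rich protein, had 4.44 and 20.5 CPM in phloem cap libraries, 0.936 and 0.894 CPM in pith libraries and 64.7 and 86.6 CPM in vascular bundle libraries. The 6 points are 3 tissues with 2 libraries each, so that r mainly reads the tissue order, and with a pseudocount of 0.1 in place of 1 GRP23, FLA11 and PUP1 stayed among the first 5.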

How the data were processed

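RNA-seq of 6 libraries of microdissected wild-type stem tissue was analysed, 2 for each tissue, with groups taken from the tissue label. RNA was amplified before library preparation. The deposited values are raw counts. To make them, the authors aligned single-end reads of 50 bases, untrimmed, to TAIR10 using STAR 2.5.0a. Uniquely aligned reads were assigned to Araport11 genes in R 3.5.0 with introns included and strand ignored, and reads over more than 1 gene were dropped.

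The main tests were run on these counts in edgeR 4.0.16 under R 4.3.3 (filterByExpr, TMM, robust glmQLFit, glmQLFTest) on the 4 libraries of each comparison. Genes were called at a fold change above 2 with a p, adjusted over all genes tested, under 0.01. SEs of log2 fold changes were derived from the test statistic. DESeq2 1.42.0 (Wald test) and the other alternatives are given at the end. All 37051 identifiers were found in TAIR10.1, which has the nuclear chromosome sequences of TAIR10. Scripts were tested on simulated data. The members and lists were chosen with earlier results of these data known. Named were all members, the 3 most abundant genes of each pathway list, NST1, NST3, VND6, VND7, MYB4, MYB32, KNAT7, WRKY12 and the 5 most alike genes, and not all of these are printed with values.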

Additional observations from a re-analysis of the deposited data

How the results depend on the processing

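No paired analysis was possible because the labels tie no library of one tissue to a library of another. The tissues were cut in turn from the stems, so that a pairing may exist, and it was not tested. Against the vascular bundle, the number of MYB genes called lower in the phloem cap, 0 in the main test, was 1 without a filter on low counts, 3 with DESeq2, and 0 to 1 with 1 library left out. The number called lower in the pith, 7 in the main test, was 2 to 5 with 1 library left out, and 6 to 9 under the other alternatives. Against the pith, the number called higher in the phloem cap, 1 in the main test, was 2 with library totals or with 1 fit over 6 libraries, 3 without a filter or with DESeq2, 4 at an adjusted p below 0.05, and 1 to 5 with 1 library left out. No MYB gene was called in the opposite direction in any comparison under any of these. Calls over all genes moved as well. For phloem cap against pith, genes called higher numbered 1517 in the main test, 1975 with library totals and 2569 with DESeq2. For phloem cap against vascular bundle, genes called lower numbered 0, 72 without a filter and 781 with DESeq2. For pith against vascular bundle they numbered 1888, 2145 with library totals and 2719 with DESeq2. Whether MYB calls rose more than those of other genes was not tested. The log2 fold change of MYB46 between the phloem cap and the pith, 1.0 in the main test, reversed to -0.44 without phloem cap replicate 2 and ranged up to 1.72 with another library left out, and no other MYB gene changed direction. Scaling to library totals in place of TMM shifted the median of all genes by 0.14 for phloem cap against vascular bundle, by -0.21 for pith against vascular bundle and by 0.34 for phloem cap against pith, and relative to that median the MYB genes stood at -1.95, -5.09 and 2.74. The order of the 3 tissue means was the same for 9 of 9 MYB genes without TMM. The cause of these shifts was not tested. The number of all genes lower in the pith was 1888 in the main test, 3247 at an adjusted p below 0.05, and 823 to 1185 with 1 library left out. With 2 libraries in a tissue, an exact permutation test of a single gene cannot give a two-sided p below 0.333, and the 1 and 4 pith counts of MYB83 and MYB42 limit those fold changes.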

Other observations

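PXY, the receptor kinase that keeps cambium cells undifferentiated, was chosen after its values were seen, because its level ran most strongly against that of the MYB genes among the 10831 genes compared (Pearson's r of -0.992 over the 6 libraries, in which each tissue gives 2 points). It had 483 and 369 CPM in phloem cap libraries, 574 and 528 CPM in pith libraries and 324 and 280 CPM in vascular bundle libraries. The other cambium markers did not run this way, with r of 0.657 for WOX4, 0.678 for SMXL5 and 0.155 for MOL1. Their mean pith levels were 2.28%, 1.96% and 84.9% of those in the vascular bundle. MYB4, MYB7 and MYB32, repressor relatives of the MYB genes, stood in different orders. MYB4 was highest in the vascular bundle, whereas MYB7 and MYB32 were highest in the pith.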
